A study of Mus musculus with 12 samples.

Results

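Glomeruli of diabetic mice that had been given arctigenin (ATG) were compared with glomeruli of nondiabetic mice that had been given vehicle, to describe which differences from healthy glomeruli were measured after 8 weeks of the drug. The comparison takes 6 of the 12 mice of the series, the 3 labelled DM_ATG and the 3 labelled Con_DMSO, and all 14096 genes in the deposited tables. No vehicle-treated diabetic mouse entered the test. All 12 mice were male eNOS-/- mice (deficient in endothelial nitric oxide synthase, the product of Nos3) on the C57BL/6J background, so both groups carried the deletion. DM_ATG mice had received streptozotocin (STZ), a toxin of the insulin-producing beta cell, at 50 mg/kg on each of 5 days from 8 weeks of age, and Con_DMSO mice had received citrate buffer. Treatment by daily gavage began 10 weeks after induction and lasted 8 weeks, with 40 mg/kg of ATG for DM_ATG mice and 5% DMSO for Con_DMSO mice, and glomeruli were taken at week 18. The groups therefore differed in diabetes and in the drug together, and the part of each in a difference cannot be told apart within this comparison.

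The glomerulus is the filter of the kidney, a tuft of capillaries whose endothelial cells, basement membrane and podocytes together hold back protein, with mesangial cells at its core. In diabetic kidney disease the basement membrane thickens, the mesangium expands and podocytes are lost. ATG is a plant lignan studied here as an activator of protein phosphatase 2A (PP2A). Among the programmes described below, p53 is a transcription factor that switches on genes of cell cycle arrest, apoptosis and DNA repair after damage, while the genes of G2 and mitosis are transcribed in dividing cells under the MuvB, B-Myb and FOXM1 factors and are repressed in resting ones.

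The values are the log2 of reads per gene multiplied by a single factor for each library, with no division by gene length, so levels are compared here between mice and not between genes. The depth of the 6 libraries lay between 27.33 and 28.88 M reads (M, mega) over these genes. The defining markers of podocytes, endothelial cells and mesangial cells were read in each of the 6 libraries, with no marker of these under 1246 reads. One protocol in the labels has the glomeruli digested and cells gated on EYFP fluorescence, a step absent from the methods of the study, but markers of all 3 glomerular cell types were present. Nos3 was itself read, with log2 values of 10.82, 11.26 and 10.94 in Con_DMSO mice and 11.23, 11.35 and 11.25 in DM_ATG mice (log2 fold change 0.27, SE 0.107, adjusted p = 0.102). A gene-level value cannot tell whether the deleted exons were read, so it does not check the deletion. The mouse numbers in the labels differ in their first part between the groups, and any difference in preparation between them cannot be told apart from the group. A single Con_DMSO mouse has no number of its own in the labels and is called Con_DMSO mouse 3 here. Nothing says more of the replicates than that they are separate mice.

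Markers of the kidney tubule, which surrounds the glomerulus and is carried along in part when glomeruli are isolated, differed between the groups in the same direction in every mouse. The mean log2 value of 92 proximal tubule, distal nephron and collecting duct markers was 11.73, 11.38 and 11.89 in Con_DMSO mice and 10.80, 10.90 and 10.38 in DM_ATG mice. These markers took from 2.82% to 3.42% of the reads in Con_DMSO mice and from 1.33% to 1.58% in DM_ATG mice. The podocyte markers, in contrast, overlapped between the groups, with a mean of 13.45, 13.46 and 13.34 in Con_DMSO mice and 13.38, 13.51 and 13.61 in DM_ATG mice. In bulk samples such as these, fewer cells of a type and less RNA per cell cannot be told apart. The main gene groups are therefore given beside the result of a fit that takes the tubule marker mean as covariate, in which all 12 mice were used because the groups did not overlap in that mean among the 6.

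**Figure D1:**
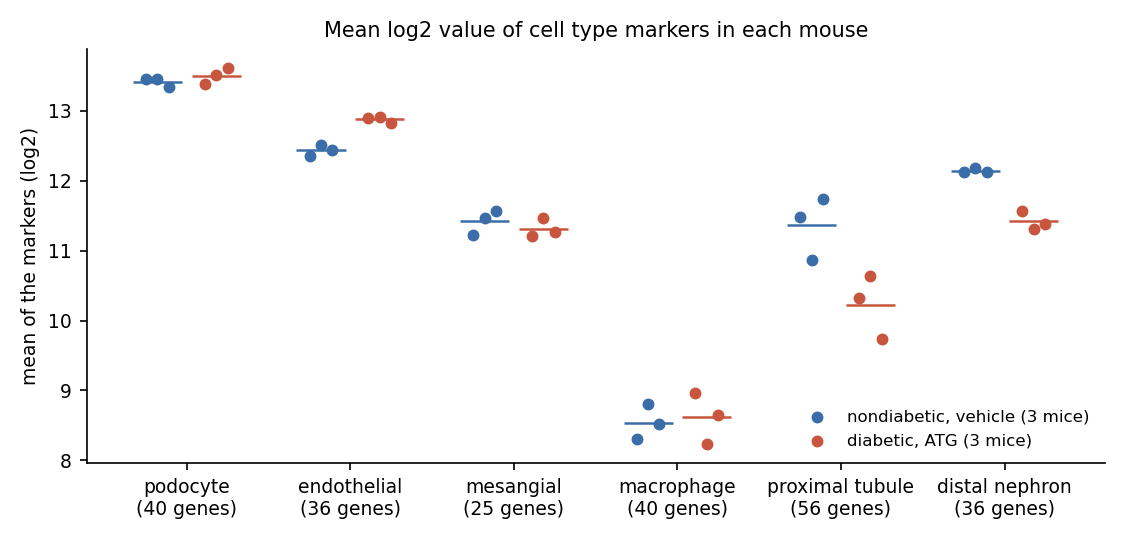
Mean log2 value of the listed markers of each cell type (y axis) in each mouse, with nondiabetic vehicle-treated mice in blue, diabetic ATG-treated mice in red and a line at the mean of 3 mice. Endothelial markers were higher in all 3 DM_ATG mice (12.82 to 12.91) than in the Con_DMSO mice (12.35 to 12.51), both tubule marker sets were lower, and the podocyte, mesangial and macrophage sets overlapped.

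Of the 14096 genes, 3585 were called at an adjusted p under 0.05 (limma, 6 mice, Benjamini-Hochberg over all genes). Of these, 1750 were higher in DM_ATG mice (12.4% of all genes) and 1835 were lower (13.0%). The median log2 fold change over all genes was -0.004, a value that the scaling of each library holds near 0. In 3110 genes (22.1%) every DM_ATG mouse lay above every Con_DMSO mouse, and in 3016 (21.4%) every one lay below. Most differences were small. Changes of at least 1 on the log2 scale were reached by 78 of the genes called higher and 225 of those called lower. With all 12 mice in the fit, 585 genes were called higher (4.15%) and 350 lower (2.48%), all of them among the 3585. The other groups varied more than those compared, with a median SD per gene of 0.162 in Con_ATG and 0.144 in DM_DMSO mice against 0.0888 in Con_DMSO and 0.0991 in DM_ATG mice. With the tubule marker mean added to that fit, 54 genes were called higher (0.383%) and 19 lower (0.135%), and the median SE rose from 0.122 to 0.156. The same covariate with the 6 compared mice alone, whose marker means do not overlap between the groups, gave 13 genes higher (0.0922%) and 12 lower (0.0851%) at a median SE of 0.194, Phlda3 (1.36, adjusted p = 0.0437) and Cdk1 (2.27, adjusted p = 0.0373) among them. Below, a value with the covariate is from the fit of 12 mice unless the 6 are named. Leaving out Con_DMSO mouse 1 gave 1972 calls in all, and leaving out any other mouse gave up to 3043.

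**Figure D2:**
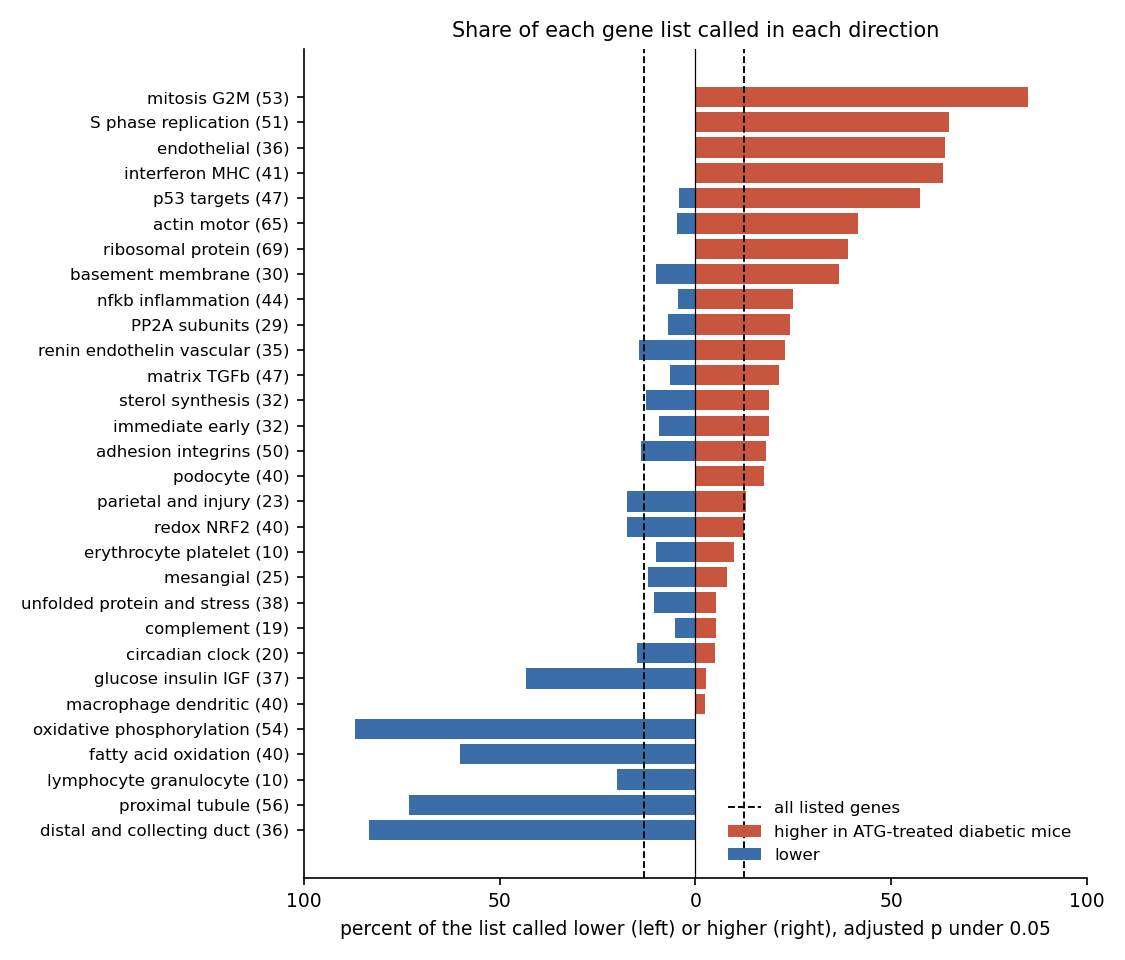
Percent of the listed members of 30 gene lists (number of members in brackets) called higher (red, right) or lower (blue, left) in DM_ATG mice at an adjusted p under 0.05, with dashed lines at the share of all listed genes (12.4% higher, 13.0% lower). Mitosis, S phase, endothelial, interferon and p53 target genes stand on the right and tubule, oxidative phosphorylation and fatty acid oxidation genes on the left.

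Target genes of p53 were among the genes with the lowest p for higher expression. Phlda3, a p53-induced inhibitor of Akt (chromosome 1, 135766085 to 135769134 of mm10), had log2 values of 9.66, 9.91 and 9.78 in Con_DMSO mice and 11.33, 11.21 and 11.22 in DM_ATG mice. No mouse of either group came near the other, and the difference was 2.77-fold (log2 fold change 1.47, SE 0.0745, adjusted p = 0.000174). Eda2r, a death receptor of the TNF receptor family on the X chromosome (97337775 to 97377209), had values of 6.53, 6.99 and 6.82 against 8.84, 8.64 and 8.90. It was 4.04-fold higher (log2 fold change 2.01, SE 0.141, adjusted p = 0.000351). Aen, a p53-induced exonuclease that digests DNA in apoptosis, went from 9.46, 9.45 and 9.52 to 10.34, 10.26 and 10.32. The groups were apart, as in 22.1% of all genes in that direction, with a log2 fold change of 0.83 (SE 0.0579, adjusted p = 0.000351).

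Of 47 p53 targets in the tables, 27 were called higher (57.4%, against 12.4% of all genes) and 2 lower (4.26%, against 13.0%). The other 18 did not pass, and the median log2 fold change was 0.33. Those called lower were Trp53i11 (-0.54) and Plxnb2 (-0.17), and Plxnb2 lost its call when any mouse other than Con_DMSO mouse 3 was left out (highest adjusted p 0.152). Several members were named after their values had been seen, because they are the usual readouts of p53. The cell cycle inhibitor Cdkn1a had values of 10.82, 11.16 and 11.70 in Con_DMSO mice and 13.05, 12.72 and 12.80 in DM_ATG mice, 3.09-fold higher (adjusted p = 0.00164). Bax, a pore-forming protein of apoptosis, rose from 10.48, 10.55 and 10.58 to 11.46, 11.27 and 11.32 (log2 fold change 0.81, adjusted p = 0.000488). Mdm2, the ubiquitin ligase that degrades p53, rose less, from 11.03, 11.06 and 10.89 to 11.42, 11.43 and 11.45 (log2 fold change 0.44, adjusted p = 0.00199). Bax and Mdm2 were also called with all 12 mice and with the covariate added, while Cdkn1a did not keep its call throughout these fits. The stress cytokine Gdf15 was higher by 1.57 on the log2 scale (adjusted p = 0.000749). Its value in DM_DMSO mice had an SD of 1.21, and with all 12 mice its adjusted p was 0.0721. Other classical targets, such as Sesn2, Ddb2 and Perp, gave log2 fold changes of 0.05, -0.03 and 0.01 and did not pass. The p53 gene itself, Trp53, gave 0.21 (adjusted p = 0.148).

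Some members of the p53 list are better known for other work. Ckap2 (log2 fold change 2.22), Psrc1 (1.91) and Gtse1 (1.14) encode proteins of the mitotic spindle, and Ccnd1 (0.61) encodes cyclin D1, which drives entry into the cell cycle. Psrc1 had values of 5.39, 5.86 and 6.03 in Con_DMSO mice and 7.64, 7.70 and 7.66 in DM_ATG mice. With all 12 mice in the fit 15 members of the list were called higher (31.9%, against 4.15% of all genes). Once the tubule marker mean was a covariate 14 were (29.8%, against 0.383%), with a median log2 fold change of 0.58. None was called lower in either. For Phlda3, the fit with the covariate gave 1.56 (adjusted p = 0.0111), for Eda2r 1.99 (adjusted p = 0.00932) and for Aen 1.02 (adjusted p = 0.0207).

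Genes of G2 and mitosis were higher in DM_ATG mice across most of the list. Of 53 in the tables, 45 were called higher (84.9%, against 12.4% of all genes) and none lower. The other 8 did not pass, and the median log2 fold change was 0.87. Cdk1, the kinase that drives entry into mitosis (chromosome 10, 69336635 to 69352912), had log2 values of 6.64, 6.43 and 6.78 in Con_DMSO mice and 8.45, 8.63 and 8.51 in DM_ATG mice. It was 3.76-fold higher (log2 fold change 1.91, SE 0.124, adjusted p = 0.000261). Its partner Ccnb1, cyclin B1, rose from 5.82, 5.84 and 5.89 to 7.32, 7.69 and 7.32 (log2 fold change 1.60, SE 0.152, adjusted p = 0.000704). Cdc20, which activates the anaphase-promoting complex, rose from 6.55, 6.68 and 6.76 to 7.96, 8.16 and 7.84 (log2 fold change 1.32, SE 0.128, adjusted p = 0.000704). The groups were apart in each of these, as in 22.1% of all genes in that direction. Levels of the whole list were low all the same. Its 53 genes took between 0.0283% and 0.0333% of the reads in Con_DMSO mice and between 0.0480% and 0.0567% in DM_ATG mice. Mki67 and Top2a, often used to mark proliferating cells and named after their values had been seen, gave log2 fold changes of 1.55 and 1.41.

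The S phase list, of genes that copy DNA, moved the same way by less. Of 51 members, 33 were called higher (64.7%, against 12.4% of all genes), none lower, and the median log2 fold change was 0.41. Pcna, the sliding clamp of DNA polymerase, had values of 11.10, 11.14 and 11.14 in Con_DMSO mice and 11.60, 11.55 and 11.55 in DM_ATG mice (log2 fold change 0.44, SE 0.0457, adjusted p = 0.000855). Mcm5 and Mcm3, subunits of the replicative helicase, were higher by 0.69 and 0.64. Some members did not pass, among them Mcm7 (0.09), E2f1 (-0.00) and Pold1 (0.01). In the fit of all 12 mice, 39 mitosis and 26 S phase genes were called higher (73.6% and 51.0%, against 4.15% of all genes) and none lower. Given the covariate, the median log2 fold change was 0.87 for mitosis and 0.47 for S phase. Of the genes, 6 and 1 were called higher (11.3% and 1.96%, against 0.383% of all genes).

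Promoters of the listed mitosis genes were read from RefSeq (GRCm38.p6), from 250 bases before the start of transcription to 50 after it. The shares below cover the whole list, called or not, and so are no evidence of a change in these mice. For 44 of the 53 genes the table held 46 promoters. On either strand, TTTGAA, the core of the cell cycle genes homology region bound by the MuvB complex, was in 73.9% of them. It was in 12.2% of the 14188 promoters of all listed genes and in 17.9% of all 32851 in the table. CCAAT, the site of NF-Y, was in 71.7% of the mitosis promoters and in 37.2% of those of all listed genes, and both motifs together were in 60.9% and 4.88%. Searched in the same way, the E-box CACGTG was in 8.70% and 9.58%. The TATA box, TATAAA, was in 0.0% and 7.80%. These are matches of letters, and no binding was measured. The promoters of 3 of the genes with the lowest p are shown because they carry the motifs in different numbers, with every match to a searched motif on either strand in capitals. They were chosen after their values had been seen. They are Cdk1 (chr10:69352863-69353162, minus strand), Cdc20 (chr4:118437294-118437593, minus strand) and Ccnb1 (chr13:100786437-100786736, minus strand), each written 5' to 3' along the gene.
Cdk1: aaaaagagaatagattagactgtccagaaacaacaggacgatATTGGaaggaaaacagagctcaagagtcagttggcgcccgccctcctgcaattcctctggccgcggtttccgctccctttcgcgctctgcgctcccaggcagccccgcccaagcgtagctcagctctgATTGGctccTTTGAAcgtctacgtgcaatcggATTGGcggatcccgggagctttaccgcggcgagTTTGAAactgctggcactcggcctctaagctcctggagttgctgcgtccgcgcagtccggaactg
Cdc20: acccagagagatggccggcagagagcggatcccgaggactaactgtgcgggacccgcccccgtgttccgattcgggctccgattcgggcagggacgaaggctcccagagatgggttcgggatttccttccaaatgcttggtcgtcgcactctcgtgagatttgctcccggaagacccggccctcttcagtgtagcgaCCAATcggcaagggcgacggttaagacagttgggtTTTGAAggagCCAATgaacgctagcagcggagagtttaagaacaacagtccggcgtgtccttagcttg
Ccnb1: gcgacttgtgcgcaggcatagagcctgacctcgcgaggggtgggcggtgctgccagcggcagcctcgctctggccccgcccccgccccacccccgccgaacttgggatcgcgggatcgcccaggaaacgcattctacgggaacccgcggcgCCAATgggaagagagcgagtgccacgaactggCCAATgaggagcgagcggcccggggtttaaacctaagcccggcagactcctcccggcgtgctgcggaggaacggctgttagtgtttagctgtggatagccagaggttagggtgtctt

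Counted from the start of transcription, the Cdk1 window held TTTGAA from base -71 and base -15 and ATTGG, the reverse complement of CCAAT, from bases -208, -80 and -48. In Cdc20, CCAAT lay at -53 and -8 with TTTGAA between them at -18. Ccnb1 held a pair of CCAAT motifs at -99 and -67 and no TTTGAA in this window. The promoter of Anln, also among the mitosis genes of lowest p and not shown, held TTTGAA at 22 and 29, CACGTG at -65 and no CCAAT. A pair of CCAAT motifs was in 47.8% of the mitosis promoters against 13.5% of those of all listed genes. The S phase promoters held TTTGAA in 14.3% and CCAAT in 61.2%, and the p53 target promoters in 16.3% and 55.1%.

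**Figure D3:**
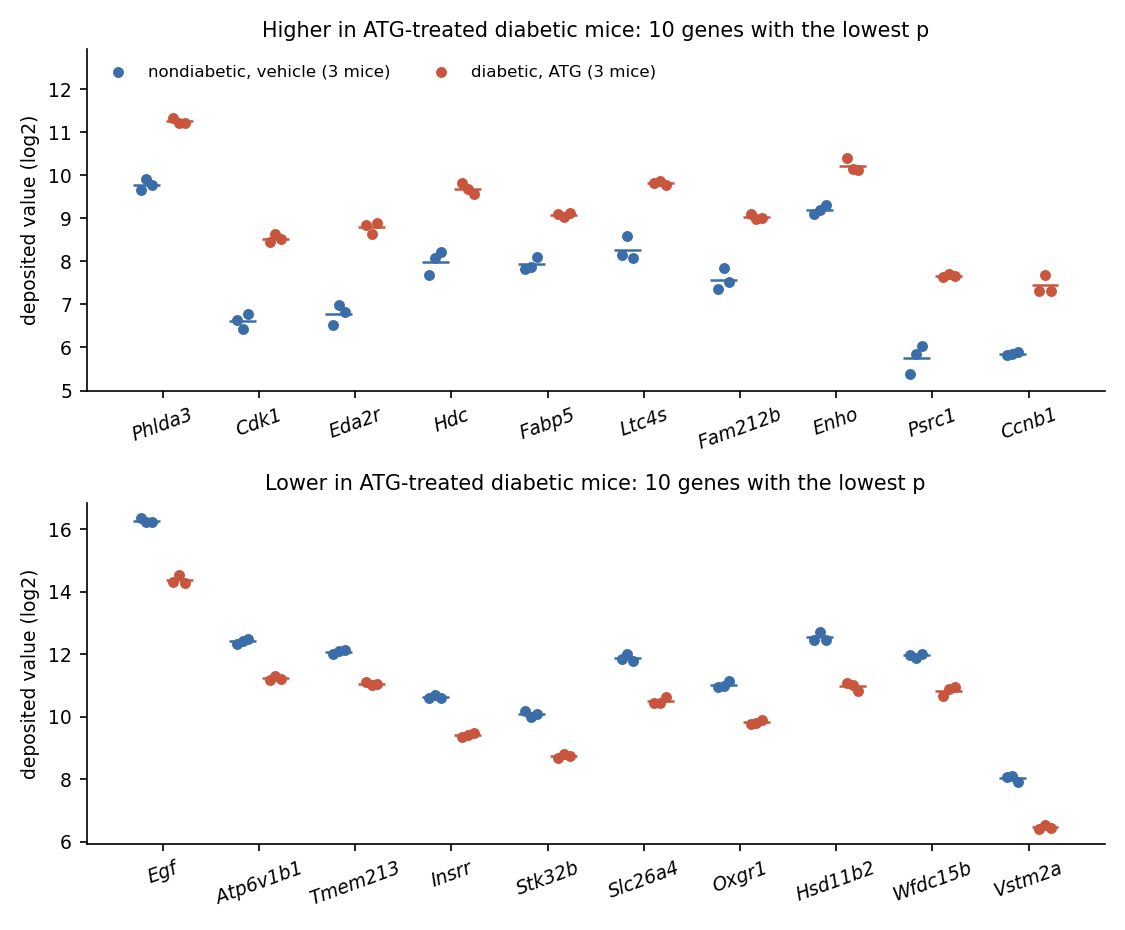
Deposited log2 value (y axis) in each mouse for the 10 genes with the lowest p in each direction among those called with a log2 fold change of at least 1, with nondiabetic vehicle-treated mice in blue, diabetic ATG-treated mice in red and a line at the mean of 3 mice. The groups do not overlap in any of the genes shown, which were chosen by their p. Over all genes they do not overlap in 22.1% (higher) and 21.4% (lower).

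Among the 10 genes with the lowest p for higher expression and a log2 fold change of at least 1 were others that share no list. Hdc, which makes histamine from histidine, had values of 7.68, 8.07 and 8.22 in Con_DMSO mice and 9.81, 9.67 and 9.57 in DM_ATG mice (3.23-fold, adjusted p = 0.000502). Ltc4s, which makes the inflammatory lipid leukotriene C4, had values of 8.14, 8.59 and 8.08 against 9.81, 9.86 and 9.78 (2.92-fold, adjusted p = 0.000502). The lipid carrier Fabp5 was higher by 2.23-fold, Enho, the gene of the peptide adropin, by 2.02-fold and Fam212b by 2.76-fold. With the covariate, Ltc4s was called (log2 fold change 2.03, adjusted p = 0.0239), while Hdc gave 1.40 (adjusted p = 0.0586), Fabp5 0.95 (adjusted p = 0.0890), Enho 0.94 (adjusted p = 0.0564) and Fam212b 1.48 (adjusted p = 0.0540). In the fits of 6 mice, of 12 mice and of 12 mice with the covariate, 37 genes were called higher and 4 lower throughout. Of these, 10 were in the p53 list, 6 in the mitosis list and 24 in no list. The 4 lower genes, named after their values had been seen, were Fbxo32, a ubiquitin ligase of muscle wasting, Ppm1l, Ano2 and Pigg.

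Endothelial genes were higher in DM_ATG mice. Of 36 markers, 23 were called higher (63.9%, against 12.4% of all genes), none lower, and the median log2 fold change was 0.49. Cd34, a surface protein of capillary endothelium, had values of 11.47, 11.49 and 11.61 in Con_DMSO mice and 12.41, 12.22 and 12.33 in DM_ATG mice (1.74-fold, adjusted p = 0.000502). Egfl7, a matrix protein made by endothelial cells, was 1.69-fold higher (12.77, 12.81 and 12.82 against 13.63, 13.54 and 13.49). The ubiquitin ligase gene Hecw2 was 1.71-fold higher. Kdr, the main receptor of VEGF on endothelium, had values of 14.54, 14.54 and 14.61 against 15.07, 14.87 and 14.90 (log2 fold change 0.38, adjusted p = 0.00565), and the junction protein gene Pecam1 gave 0.36 (adjusted p = 0.00753). Others did not pass, such as Vwf (-0.13), Plvap (-0.02) and the angiopoietin receptor Tek (0.11). All endothelial markers together took from 1.25% to 1.37% of the reads in Con_DMSO mice and from 1.66% to 1.89% in DM_ATG mice. With all 12 mice 12 were called higher (33.3%, against 4.15% of all genes). Once the covariate was added none was, and the median log2 fold change was 0.36.

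Among 35 vascular regulators, 8 were called higher (22.9%) and 5 lower (14.3%), against 12.4% and 13.0% of all genes. Adm, the vasodilator adrenomedullin, rose from 11.96, 11.94 and 11.92 in Con_DMSO mice to 12.90, 13.10 and 12.61 in DM_ATG mice (1.90-fold, adjusted p = 0.00138), though with 12 mice its adjusted p was 0.0874. Tfpi, an inhibitor of coagulation, and Ece1, the enzyme that activates endothelin, were higher by 0.56 and 0.41 on the log2 scale, and their adjusted p with 12 mice was 0.0669 and 0.0614. In that fit 1 gene of the list was called higher and 3 lower. Ren1, the renin gene of juxtaglomerular cells, was lower, at 11.72, 11.78 and 11.33 against 9.94, 10.83 and 10.30 (2.38-fold, adjusted p = 0.00534). It gave -1.67 with the covariate (adjusted p = 0.0667). Edn3 and Vegfb fell by 0.76 and 0.35 on the log2 scale, and Vegfb was reversed, at 0.31, once the covariate was in the fit, where no gene of the list was called.

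Of 30 genes of the basement membrane, 11 were called higher (36.7%) and 3 lower (10%), against 12.4% and 13.0% of all genes. The nidogens Nid2 and Nid1, which tie laminin to collagen, were higher by 0.47 and 0.38, with Nid2 at 10.80, 10.93 and 10.89 in Con_DMSO mice and 11.31, 11.30 and 11.43 in DM_ATG mice. The laminin chain gene Lamc1 was higher by 0.39, and Lamc3 was lower by 1.90-fold, at 8.57, 8.77 and 8.58 against 7.66, 7.81 and 7.66 (adjusted p = 0.000921). Fras1 and Lama2 also fell, by 0.64 and 0.35. The collagen chains Col4a1 (0.42) and Col4a2 (0.59) of the early and mesangial basement membrane were called, while Col4a3 (0.24), Col4a4 (0.03) and Col4a5 (0.05) of the mature filter did not pass, and the difference between the chains was not tested. These collagen genes were named after their values had been seen. In the fit of all 12 mice 3 genes of the list were called higher and 2 lower, Lamc3 among them (adjusted p = 0.00435), and with the covariate none.

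Of 40 podocyte markers, 7 were called higher (17.5%, against 12.4% of all genes), none lower, and the median log2 fold change was 0.08. Nphs1, the gene of the slit diaphragm protein nephrin, did not pass. It had values of 15.91, 15.92 and 15.83 in Con_DMSO mice and 15.89, 16.02 and 16.06 in DM_ATG mice (log2 fold change 0.10, SE 0.0684, adjusted p = 0.300). The transcription factor gene Wt1, used to count podocytes in tissue, gave 0.03 (SE 0.0932, adjusted p = 0.845) and the actin regulator Synpo 0.08 (adjusted p = 0.597). A p that misses the threshold does not show that these did not differ. Among those with the lowest p were Cdkn1c, a cell cycle inhibitor of mature podocytes (14.05, 14.11 and 13.86 against 14.46, 14.54 and 14.37, log2 fold change 0.45), Nes, an intermediate filament (0.37), and Arhgef7 (0.31), an activator of Rac and Cdc42. Nes was reversed with the covariate, at -0.05, where the median of the list was -0.48 and none was called. Without Con_DMSO mouse 1 or DM_ATG mouse 3, 3 podocyte genes were called higher, and with all 12 mice 1 was, Arhgef7 (adjusted p = 0.0338).

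Of 25 mesangial and renin-lineage genes, 2 were called higher (8%) and 3 lower (12%), shares below those of all genes, with Serpine2, an inhibitor of thrombin, at 0.66 and Mcam at 0.62, and Pdgfra at -0.51, Sfrp2, a modulator of Wnt signalling, at -0.78 and Ren1 as above. Pdgfrb, the defining receptor of mesangial cells, had values of 11.92, 12.03 and 12.27 against 11.60, 11.98 and 11.81 and did not pass (adjusted p = 0.116). On leaving out Con_DMSO mouse 1, 7 genes of the list were called lower, and with the covariate none was called. Sfrp2 lost its call without any of the Con_DMSO mice or without DM_ATG mouse 3 (highest adjusted p 0.0588). Among 47 genes of matrix and TGF-beta signalling, 10 were called higher (21.3%) and 3 lower (6.38%), against 12.4% and 13.0% of all genes. The cytokine gene Tgfb1 was higher, at 10.29, 10.56 and 10.59 against 11.05, 11.10 and 11.03 (log2 fold change 0.58, adjusted p = 0.00270), as were Sparc (0.38) and the receptor gene Tgfbr2 (0.34). The other receptor gene, Tgfbr1, fell by 0.36, and the collagen genes Col5a2 and Col6a1 fell by 0.74 and 0.41. With 12 mice, 2 genes of that list were called higher and 1 lower, and with the covariate none.

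Interferon-stimulated genes and genes of antigen presentation by MHC class I were higher in DM_ATG mice. All 41 had a log2 fold change above 0, 26 passed (63.4%, against 12.4% of all genes called higher), and the median was 0.52. Isg15, a ubiquitin-like protein induced by interferon, had values of 8.98, 9.01 and 8.45 in Con_DMSO mice and 10.11, 9.74 and 10.14 in DM_ATG mice (2.28-fold, adjusted p = 0.00264). Bst2, tetherin, which holds virus at the cell surface, had values of 11.08, 11.19 and 10.62 against 12.01, 11.76 and 11.92 (1.91-fold, adjusted p = 0.00331). Ifi35 was higher by 0.47. The groups did not overlap in Isg15 or Bst2, as in 22.1% of all genes in that direction, and Con_DMSO mouse 3 was the lowest in both. Genes of MHC class I such as H2-K1 (0.72) and H2-D1 (0.67), named after their values had been seen, are near copies of each other, and how reads shared between them were counted is not given in the sources used here. When Con_DMSO mouse 1 was left out, 16 were called. In the fit of 12 mice, 12 were called higher (29.3%, against 4.15% of all genes), and with the covariate none, where the median was 0.30.

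Genes of inflammation through NF-kB changed in smaller numbers. Of 44, 11 were called higher (25%, against 12.4% of all genes) and 2 lower (4.55%, against 13.0%), with a median log2 fold change of 0.16. Tnfrsf12a, the receptor of the cytokine TWEAK, rose from 10.30, 10.51 and 10.03 in Con_DMSO mice to 11.94, 11.40 and 11.61 in DM_ATG mice (2.59-fold, adjusted p = 0.00121). The receptor genes Tlr4 and Tnfrsf1a were higher by 0.51 and 0.37. Nfkb2, the gene of an NF-kB subunit, did not pass (0.14, adjusted p = 0.251). Traf1 fell by 0.68, and Nlrp3, the sensor of an inflammasome, by 0.56, the latter with a call that was lost without mouse 1 or mouse 2 of either group (highest adjusted p 0.121). Of 40 macrophage and dendritic cell markers, 1 was called, in the higher direction (2.5%, against 12.4% of all genes). It was the transcription factor gene Irf8 (8.96, 8.99 and 9.31 against 9.97, 9.78 and 9.93, adjusted p = 0.00202). Without DM_ATG mouse 2, 5 of these markers were called higher. The macrophage list overlapped between the groups and took 0.0813%, 0.114% and 0.0925% of the reads in Con_DMSO mice and 0.126%, 0.0753% and 0.0966% in DM_ATG mice. Of 10 lymphocyte and granulocyte markers listed, out of 35 looked for, Kit and Nkg7 were called lower (20%, against 13.0% of all genes). Without Con_DMSO mouse 1, 6 genes of the NF-kB list were called higher, and with all 12 mice 3 were called higher and 1 lower. Without Con_DMSO mouse 3, 4 were called lower. With the covariate, no gene of the NF-kB, macrophage or lymphocyte lists was called.

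Of 65 genes of actin and its motors, 27 were called higher (41.5%) and 3 lower (4.62%), against 12.4% and 13.0% of all genes, with a median log2 fold change of 0.16. Anln, which builds the contractile ring at the end of mitosis, was 1.83-fold higher (7.71, 7.88 and 7.76 against 8.51, 8.79 and 8.65), and was also called with the covariate (0.80, adjusted p = 0.0472). Vasp, which extends actin filaments, was higher by 0.45 (11.21, 11.36 and 11.29 against 11.75, 11.71 and 11.76), and the tropomyosin gene Tpm4 by 0.64. Wasf3, an activator of actin branching, was 1.91-fold lower. Dbn1, the actin-bundling drebrin, was lower by 0.21, a call that was lost when any mouse other than DM_ATG mouse 1 was left out (highest adjusted p 0.0969). Dbn1 was reversed with the covariate but not called (0.28, adjusted p = 0.622). Without Con_DMSO mouse 1, 15 actin genes were called higher, and with all 12 mice 10 were called higher and 1 lower. Of 50 adhesion genes, 9 were called higher (18%) and 7 lower (14%), against 12.4% and 13.0% of all genes. Those higher with the lowest p were the junction genes Jam3 (0.39), Cdh5 (0.55) and the adhesion receptor gene Icam2 (0.52). Without DM_ATG mouse 2, 4 were called lower. Those lower with the lowest p were the epithelial cadherin genes Cdh16 (-0.76) and Cdh1 (-0.85), and the collagen receptor gene Itga1 (-0.29). Cdh16 was reversed with the covariate, at 0.18, where no adhesion gene was called. With all 12 mice 4 adhesion genes were called higher and 1 lower, none of them among those named here.

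Genes that the study picked from these libraries for their response to ATG are given whatever their values, and are no independent evidence of a direction. Zyx, a focal adhesion protein, was higher, at 10.34, 10.64 and 10.62 in Con_DMSO mice against 11.10, 10.96 and 10.96 in DM_ATG mice (log2 fold change 0.47, adjusted p = 0.00830). Rapgef5, an activator of Rap proteins, was higher by 0.44 (adjusted p = 0.00727) and at -0.00 with the covariate. Itgb7, Wash1 and Was did not pass, with log2 fold changes of 0.26, 0.09 and -0.00 and adjusted p of 0.114, 0.311 and 0.988.

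Of the 4 core subunit genes of PP2A, the phosphatase that ATG activates, 1 was called. The scaffold gene Ppp2r1a had values of 12.80, 12.82 and 12.84 in Con_DMSO mice and 12.83, 12.81 and 12.80 in DM_ATG mice (log2 fold change -0.01, SE 0.0424, adjusted p = 0.901). The other scaffold gene, Ppp2r1b, gave -0.13 (adjusted p = 0.276). Of the catalytic subunit genes, Ppp2ca gave 0.06 (adjusted p = 0.395) and Ppp2cb was higher by 0.23 (11.59, 11.63 and 11.54 against 11.80, 11.81 and 11.84, adjusted p = 0.0101). Regulatory subunits decide which substrates the enzyme meets. Ppp2r2b was 2.13-fold lower, at 8.49, 8.19 and 8.58 against 7.39, 7.33 and 7.28 (adjusted p = 0.00117), and Ppp2r3a was lower by 0.41. Of 29 subunits and regulators, 7 were called higher (24.1%), among them Ensa (0.26) and Ppp2r2d (0.24), and 2 lower (6.9%), against 12.4% and 13.0% of all genes. When Con_DMSO mouse 1 was left out, 2 were called higher, and with all 12 mice none was called in either direction, nor with the covariate.

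Of the 10 genes with the lowest p for lower expression among those called with a log2 fold change of at least 1, 4 are in the list of distal nephron and collecting duct markers (Egf, Hsd11b2, Slc26a4 and Tmem213). Egf, made in the thick ascending limb and distal convoluted tubule (chromosome 3, 129677577 to 129725086), had log2 values of 16.34, 16.22 and 16.24 in Con_DMSO mice and 14.32, 14.54 and 14.27 in DM_ATG mice. It was 3.71-fold lower (log2 fold change -1.89, SE 0.0815, adjusted p = 0.000174). Hsd11b2, the enzyme that shields the mineralocorticoid receptor from glucocorticoids, had values of 12.44, 12.72 and 12.45 against 10.81 to 11.09 (2.96-fold lower, adjusted p = 0.000205). Atp6v1b1, a subunit of the proton pump of acid-secreting cells, had values of 12.34, 12.43 and 12.47 against 11.17, 11.31 and 11.19 (2.28-fold lower, adjusted p = 0.000174), and the chloride exchanger gene Slc26a4 was 2.58-fold lower. Insrr, Oxgr1 and Tmem213 were 2.34-fold, 2.27-fold and 2.03-fold lower, and Stk32b, Vstm2a and Wfdc15b 2.55-fold, 2.97-fold and 2.17-fold. The fits with the covariate differed for these genes. With 6 mice, 5 of the 10 were called, Egf (-1.64), Slc26a4 (-1.77) and Tmem213 (-1.02), which are part of the covariate, and Atp6v1b1 (-1.10, adjusted p = 0.0376) and Insrr (-1.44, adjusted p = 0.0305), which are not. With 12 mice none of the 10 was called. Among the 6 that are not part of it, Atp6v1b1 then gave -0.38 (adjusted p = 0.495), Insrr -0.69 (adjusted p = 0.195) and Vstm2a -0.75 (adjusted p = 0.328). Oxgr1, Stk32b and Wfdc15b gave -0.38, -0.49 and -0.43. Of 36 distal nephron and collecting duct markers, 30 were called lower (83.3%, against 13.0% of all genes), none higher, and the median log2 fold change was -0.73. They did not all move. Aqp2, the water channel of principal cells, gave 0.01 (adjusted p = 0.991), while Umod, uromodulin, was 2.22-fold lower.

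Proximal tubule markers fell further and varied more. Of 56, 41 were called lower (73.2%, against 13.0% of all genes), none higher, and the median log2 fold change was -1.11. The anion transporter gene Slco1a1 had values of 9.29, 8.82 and 9.78 in Con_DMSO mice and 6.57, 7.27 and 6.45 in DM_ATG mice (5.79-fold lower, adjusted p = 0.00111). Kap, an androgen-regulated protein of the proximal tubule, had values of 16.19, 15.73 and 16.17 against 13.66, 14.24 and 13.01 (5.25-fold lower), and the amino acid transporter gene Slc7a13 was 4.44-fold lower. Within each group, the lowest Con_DMSO mouse (mouse 2) and the highest DM_ATG mouse (mouse 2) were nearest to each other in all 3 genes. Lrp2, the receptor megalin, was 2.27-fold lower, a call that was lost without Con_DMSO mouse 1 (adjusted p 0.0595). On leaving out Con_DMSO mouse 1, 16 proximal tubule markers were called lower. In the fit of 12 mice, 12 proximal and 3 distal markers were called lower (21.4% and 8.33%, against 2.48% of all genes). These genes make up the covariate, so their medians with it (-0.04 and 0.05) say nothing more.

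Genes of oxidative phosphorylation were lower by small and even amounts. Of 54, 47 were called lower (87.0%, against 13.0% of all genes) and none higher. The median log2 fold change was -0.26, with a range from -0.42 to -0.07. Sdha, the flavoprotein of complex II, had values of 14.15, 14.05 and 14.21 in Con_DMSO mice and 13.68, 13.76 and 13.70 in DM_ATG mice (1.34-fold lower, adjusted p = 0.00221). Uqcrfs1, the iron-sulfur protein of complex III, had values of 12.83, 12.78 and 12.87 against 12.49, 12.49 and 12.46 (1.27-fold lower, adjusted p = 0.00204), and Sdhc was 1.28-fold lower. On leaving out Con_DMSO mouse 1, 24 were called. Con_DMSO mice had both the higher tubule marker mean and the higher values of these genes. In the fit of 12 mice, none was called, and with the covariate none was called and the median was 0.19, with Sdha at 0.02 and Uqcrfs1 at 0.21. The promoters of this list, the one with the largest share called, held CCAAT in 37.0%, against 37.2% of those of all listed genes, and TTTGAA in 2.17%. That of Sdha (chr13:74350191-74350490, minus strand) is shown beside those of the mitosis genes because it has a single match to the searched motifs, ATTGG at -185.
Sdha: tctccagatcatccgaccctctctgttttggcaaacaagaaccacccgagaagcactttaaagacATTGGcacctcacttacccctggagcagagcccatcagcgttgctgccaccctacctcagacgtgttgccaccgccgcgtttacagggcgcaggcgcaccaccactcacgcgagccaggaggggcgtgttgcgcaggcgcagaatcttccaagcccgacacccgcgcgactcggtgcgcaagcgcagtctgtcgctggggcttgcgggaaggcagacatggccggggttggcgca

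Genes that burn fatty acids followed the same direction. Of 40, 24 were called lower (60%, against 13.0% of all genes), none higher, and the median log2 fold change was -0.33. Oxct1, which uses ketone bodies, was 1.58-fold lower (15.00, 14.90 and 14.89 against 14.13, 14.37 and 14.31), and the acyl-CoA enzymes Acsl1 and Acad12 were 1.63-fold and 1.64-fold lower. Over the 12 mice together, 2 were called lower (5%, against 2.48% of all genes), and with the covariate none. Of 37 genes of glucose handling, insulin and IGF, 16 were called lower (43.2%, against 13.0% of all genes) and 1 higher (2.7%, against 12.4%). Igfbp3, a carrier of IGF, was lower, at 11.60, 11.77 and 11.84 against 10.73, 10.97 and 10.71 (1.91-fold, adjusted p = 0.000704), as were Pdk2, which restrains pyruvate dehydrogenase (1.48-fold), and Slc2a4, the insulin-responsive glucose transporter (1.40-fold). Igfbp7 was higher by 0.23, a call that was lost without Con_DMSO mouse 1, Con_DMSO mouse 2 or DM_ATG mouse 2 (highest adjusted p 0.0700). Over the 12 mice together, 5 were called lower (13.5%, against 2.48% of all genes). Without Con_DMSO mouse 1 or Con_DMSO mouse 3, 9 genes of this list were called lower. Slc2a4 was at 0.01 with the covariate, where none was called.

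Of 40 redox genes, 5 were called higher (12.5%) and 7 lower (17.5%), near the shares of all genes (12.4% and 13.0%). Nos2, inducible nitric oxide synthase, was 1.94-fold higher, at 8.38, 8.54 and 8.81 in Con_DMSO mice against 9.48, 9.55 and 9.58 in DM_ATG mice (adjusted p = 0.00135), and Nos1, the neuronal form, was lower by 0.55. Gclc, the rate-limiting enzyme of glutathione synthesis, was lower by 0.63, and Sod2, the mitochondrial superoxide dismutase, by 0.34. Keap1 and Akr1b8 were called higher at 0.21 and 0.57, Keap1 losing the call without any mouse other than DM_ATG mouse 1 and Akr1b8 without any other than DM_ATG mouse 2 (highest adjusted p 0.0788 and 0.133). Over the 12 mice together, 1 gene was called higher, Nos2 itself (adjusted p = 0.00689). In the fits of 6 mice, leaving out Con_DMSO mouse 1 or 3 also gave 1 call higher. Leaving out mouse 1 or 3 of either group gave 4 calls lower, and leaving out another mouse gave up to 9. With the covariate the median of the list went from -0.05 to 0.26, and the glutathione transferase genes Gsta2 (1.80, adjusted p = 0.0207) and Gsta3 (0.96, adjusted p = 0.0239) were called higher and none lower. Both were named after their values had been seen, and how reads shared between related genes were counted is not given in the sources used here. The target genes of NRF2 Nqo1, Srxn1 and Gstm1, named after their values had been seen, gave log2 fold changes of 0.01, 0.04 and -0.06.

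**Figure D4:**
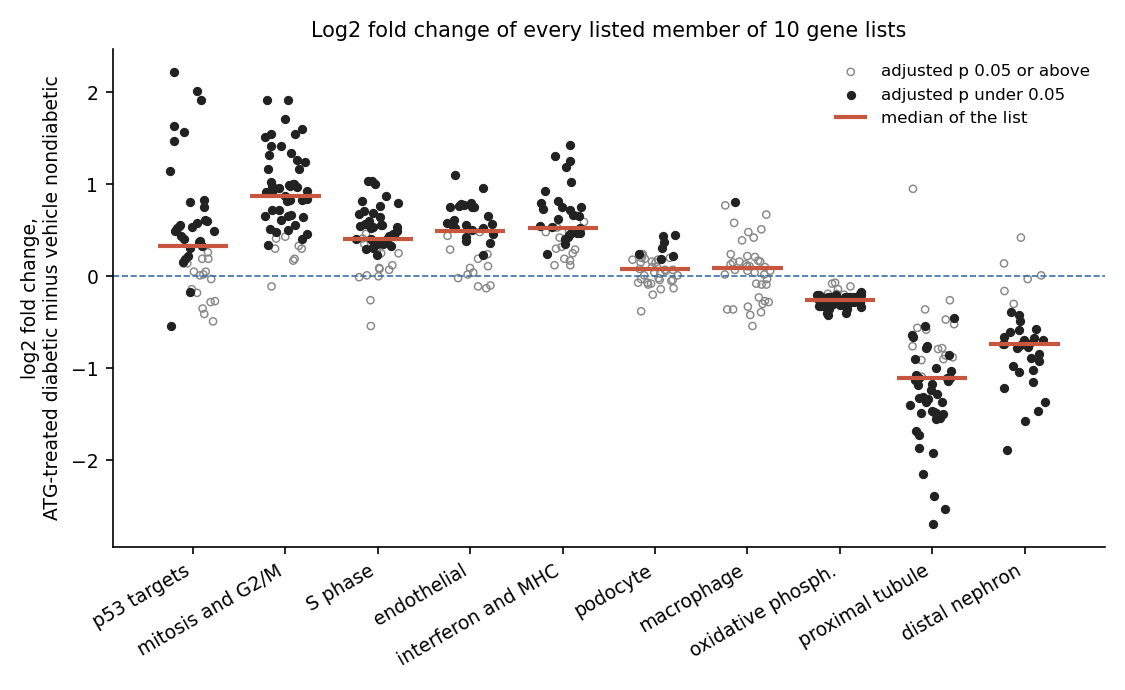
Log2 fold change, DM_ATG minus Con_DMSO (y axis), of every listed member of 10 gene lists, filled where the adjusted p is under 0.05, with a red line at the median of each list and a dashed line at 0. Oxidative phosphorylation genes lie in a narrow band from -0.42 to -0.07, podocyte genes lie around 0 and mitosis genes around 0.87.

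**Figure D5:**
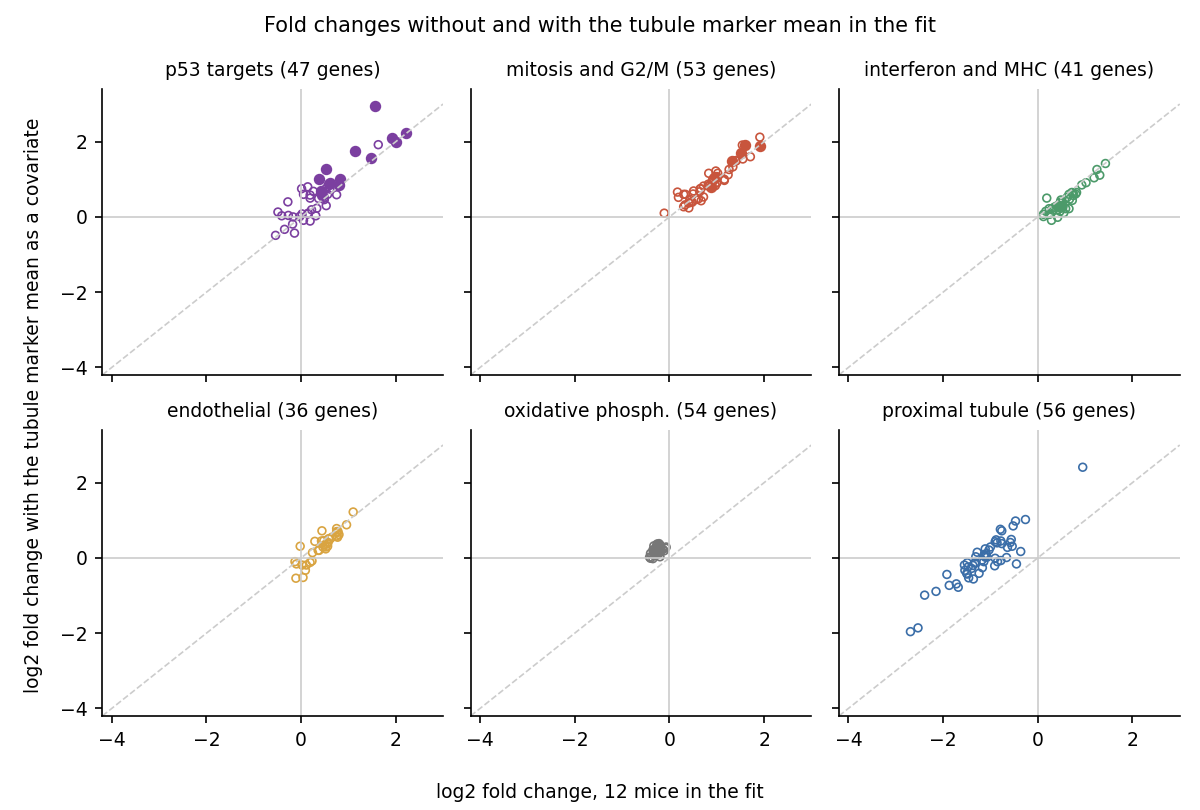
Log2 fold change, DM_ATG minus Con_DMSO, of the members of 6 lists with all 12 mice in the fit (x axis) and with the tubule marker mean added as a covariate (y axis), filled where the adjusted p of the latter is under 0.05, with a dashed line of equal values. Most mitosis and p53 target genes lie at positive values on both axes, while oxidative phosphorylation and proximal tubule genes move from below 0 to around it, the latter being part of the covariate.

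The values of the same genes in the other groups were set beside these. Both comparisons below use the Con_DMSO mice again, so they are not independent of the first, and they come from the fit of all 12 mice. Against Con_DMSO, vehicle-treated diabetic mice (DM_DMSO) differed by 1.69 for Phlda3, 2.05 for Cdk1, 2.15 for Eda2r and -1.96 for Egf on the log2 scale, where DM_ATG mice differed by 1.47, 1.91, 2.01 and -1.89. ATG-treated nondiabetic mice (Con_ATG) differed by -0.57, -0.47, -0.52 and 0.43. Of these Con_ATG differences only that of Phlda3 passed (adjusted p = 0.0351), against 0.0506 for Cdk1, 0.0639 for Eda2r and 0.333 for Egf. For Cd34 the differences were 0.75 in DM_DMSO, 0.80 in DM_ATG and -0.71 in Con_ATG mice, and for Isg15 1.13, 1.19 and -0.80. For Ren1 they were -0.95, -1.25 and -0.84, and for Lamc3 -0.95, -0.93 and -0.62, with each group mean below that of Con_DMSO mice. In Con_ATG mice the differences of Cd34 (adjusted p = 0.0275) and Lamc3 (0.0153) passed, and those of Isg15 (0.0555) and Ren1 (0.0927) did not. Con_ATG mice also had the highest tubule marker means of the series, 12.60, 12.03 and 12.32, and DM_DMSO mice had means of 10.60, 10.92 and 9.70. Between DM_ATG and DM_DMSO mice directly, the log2 difference was -0.22 (SE 0.130) for Phlda3, -0.14 (SE 0.122) for Cdk1 and 0.07 (SE 0.299) for Egf, each with an adjusted p of 1.0, which does not show that the drug left them unchanged.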

How the data were processed

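Poly-A RNA of isolated glomeruli was sequenced from 12 mice, of which the 3 DM_ATG and 3 Con_DMSO mice were compared. The authors deposited the log2 of normalized reads for 14096 genes per mouse, already filtered on low values. The submitters' processing notes name mm10 and limma, while the aligner and counter, and whether counting used strand or how it shared reads between near copies, are not given in the sources used here. Within a library, values stepped by a constant amount, and 83.7% to 84.2% of values under 2000 reads were whole within 0.02 reads, which gave the depths. Starts were raised by 1 to count from 1.

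The log2 values were tested with limma 3.58.1 in R 4.3.3 (empirical Bayes with a mean trend, 4 residual degrees of freedom), two-sided, with Benjamini-Hochberg adjustment over all 14096 genes and a threshold of 0.05. Fold changes are DM_ATG minus Con_DMSO. Motifs and figures used Python 3.11.15 and matplotlib 3.10.9. The script was tested on simulated data. Alternatives were all 12 mice, a tubule marker covariate, a replicate block, other scalings, filters, weights and offsets, and leaving out each mouse.

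Named genes were the 10 of lowest p in each direction with a change of at least 1, up to 3 called members per direction of each list, and a fixed set of markers, PP2A genes and genes of the study. Some named genes are not reported here. Members and lists were chosen with earlier results of these data known.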

Additional observations from a re-analysis of the deposited data

How the results depend on the processing

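Of the 3585 calls (1750 higher, 1835 lower), fewer were made under several alternatives. All 12 mice gave 935 (585 higher, 350 lower), the tubule marker mean as a covariate 25 with 6 mice (13 higher, 12 lower) and 73 with 12 mice (54 higher, 19 lower). An adjusted p under 0.01 left 1552 (741 higher, 811 lower) and a log2 fold change of at least 1 left 303 (78 higher, 225 lower). Leaving out 1 mouse gave 1972 to 3043 calls, 920 to 1420 higher and 1052 to 1623 lower, the lowest without Con_DMSO mouse 1. Another scaling, weights, offset, filter or no trend kept every count within 1.5 times. The 6 mice with the covariate had a median SE of 0.194, and their marker means did not overlap between groups.

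Same-numbered mice are different animals that share only a number, and their deviations correlated at -0.13 and -0.289. The replicate block left 1114 calls (499 higher, 615 lower), with 1 residual degree of freedom. Con_DMSO mouse 3, which the labels leave unnumbered, and DM_ATG mouse 3 have no partner in it, so its fold changes rest on 4 mice and the drop also reflects the loss of 2. The block left 179 with 12 mice (133 higher, 46 lower), where Dbn1 was reversed (0.01).

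Direction was reversed for 22 of the 141 named and called genes with the covariate and 12 mice: log2 fold changes were 0.33 for Clu, 0.40 for Pax2, 0.23 for Pax8, 0.08 for Kit, 0.08 for Slc4a1, 0.28 for Dbn1, 0.18 for Cdh16, 0.02 for C3, 0.01 for Slc2a4, 0.07 for Sod2, 0.21 for Uqcrfs1, 0.02 for Sdha, 0.33 for Hspa1b, 0.17 for Vldlr, 0.06 for Egr1, 0.18 for Junb, 0.43 for Fos, 0.26 for Usp2, 0.31 for Vegfb, -0.05 for Nes, -0.16 for Cd55 and -0.00 for Rapgef5. With 6 mice it was reversed for 4, at 0.01 for Pax8, 0.19 for Acss2, 0.49 for Me1 and 0.39 for Lrp2. None of these genes was called in the fit that reversed it. The lowest adjusted p was 0.41 with 12 mice (Pax2) and 0.205 with 6 (Me1). Their direction with the covariate is therefore not settled, and the cause of the change in sign was not tested. Calls of 78 named genes were lost with 12 mice and of 55 under the block.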

Other observations

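Further gene groups were measured in the same comparison of DM_ATG with Con_DMSO mice. Of 69 ribosomal protein genes, 27 were called higher (39.1%, against 12.4% of all genes) and none lower, with log2 fold changes from 0.01 to 0.32, such as Rps19 (0.32), Rpl39 (0.25) and Rps7 (0.24). Without Con_DMSO mouse 1, 3 were called, with all 12 mice 2 and with the tubule marker covariate none, and reads of these genes can be shared with their pseudogenes. Of 32 immediate early genes, 6 were called higher (18.8%) and 3 lower (9.38%), around the shares of all genes (12.4% and 13.0%), and with all 12 mice none was called. Egr1, a transcription factor of the early response, was lower, at 12.70, 12.57 and 13.65 in Con_DMSO mice against 11.44, 11.66 and 11.79 in DM_ATG mice (adjusted p = 0.00836), as were Fos (-1.01) and Junb (-0.79), while Ctgf (0.61), Rhob (0.50) and Klf6 (0.40) were higher. Without DM_ATG mouse 1 or mouse 2, 1 was called lower, and without DM_ATG mouse 3, 11 were called higher. All 3 lower genes were reversed with the tubule marker covariate, where 1 gene of the list, Dusp6, was called higher.

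Of 20 clock genes, Cry1 was called higher (0.64) and Hlf (-0.65), Usp2 (-0.45) and Rora (-0.27) lower. Of 38 genes of the unfolded protein response and stress, Mthfd2 (0.68) and Atf4 (0.42) were higher and 4 were lower, among them Hspa1b (-0.83), Calr (-0.35) and Vldlr (-0.34). Of 32 genes of sterol and lipid synthesis, 6 were higher, among them Mvk (0.61), Sqle (0.43) and Fdps (0.31), and 4 lower, among them Fads2 (-0.77), Me1 (-0.68) and Acss2 (-0.51). Without Con_DMSO mouse 1, 1 sterol gene was called higher and none lower, and 1 clock gene was called lower. Without Con_DMSO mouse 3, 8 clock genes, 16 genes of the unfolded protein response and no sterol gene were called lower. The shares called of the clock, unfolded protein and sterol lists, from 5.00% to 18.8% in either direction, lie around those of all genes (12.4% higher, 13.0% lower). With all 12 mice, 1 clock and 2 sterol genes were called higher and no gene of the 3 lists lower, and with the covariate none was called.

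Of 19 complement genes, Cd55, which protects cells from complement, was higher (0.38) and C3 lower (-0.52, adjusted p = 0.0497, with groups that overlapped). These calls were 5.26% of the list in each direction, against 12.4% and 13.0% of all genes. Neither was called with all 12 mice (adjusted p = 0.329 and 0.229). Of 23 genes of parietal cells and injury, 3 were higher, S100a6 (0.68), Anxa3 (0.52) and Akap12 (0.50), and 4 lower, among them Clu (-0.54), Pax8 (-0.50) and Pax2 (-0.36), shares of 13.0% and 17.4% near those of all genes. With all 12 mice S100a6 alone was called. When Con_DMSO mouse 1 was left out, 2 were called higher and 1 lower. Of 10 erythrocyte and platelet genes listed, Itga2b was higher (0.58) and Slc4a1, which the collecting duct also expresses, lower (-0.69), 10% in each direction. Without DM_ATG mouse 3, 5 of them were called higher, and with all 12 mice Itga2b alone. With the covariate no gene of the complement, parietal or erythrocyte lists was called.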
